A study of Mus musculus with 40 samples.

Results

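The genes described here are 46 protein-coding mouse genes named for hosting a microRNA within their span, out of the 18193 genes that the array annotation covers. They were taken by name, with every probe set that the annotation assigns to them alone, which gave 130 probe sets of the 45037 non-control probe sets on the array (Affymetrix Mouse430_2). Prefrontal cortex (PFC) and hippocampus (HPC) came from male C57BL/6 mice aged 8 weeks, with 10 Df(16)A/+ and 10 wild-type littermates for each region, 1 array per sample and 40 arrays in all. In Df(16)A/+ one chromosome 16 lacks an interval that holds Dgcr8, the mouse model of a human microdeletion. The wild-type littermates carried no deletion, no group was treated, and the titles call the samples biological replicates. The signals were summarised with GCRMA and are given as log2, and differences are Df(16)A/+ minus wild type with the standard error (SE) of the fit. A probe set was tested where its signal passed 4 (log2) in at least 10 of the 20 arrays of a region, and called where its p, adjusted by Benjamini-Hochberg over all tested probe sets, was below 0.05.

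MicroRNAs are cut out of longer transcripts. In the nucleus the RNA-binding protein DGCR8 holds the primary transcript while the nuclease Drosha cuts the hairpin free, and Dicer then trims it to the mature microRNA. A hairpin that lies in an intron of a protein-coding gene can be cut from the pre-mRNA while the exons are still spliced into mRNA. A cut within an exon, as can happen in a noncoding primary transcript, breaks the transcript that holds the hairpin. The comparison therefore asks whether the mRNA signals of protein-coding hosts differ in animals with 1 copy of Dgcr8, and sets them beside noncoding primary transcripts.

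In assembly GRCm38.p6 the spans of 44 of the 46 genes hold an annotated microRNA, 62 microRNA genes together. None was annotated within Ptprn or Akt2. In 35 genes a microRNA lies on the strand of its host and in 4 (Dnm1, Dnm2, Dnm3 and Iars2) on the opposite strand alone, while for 5 (Grid1, Ppargc1b, Smc4, Arrb1 and Tln2) a strand was not given. The spans run from 5.3 kb (Dalrd3) to 857.6 kb (Trpm3). Whether a hairpin lies in an intron or an exon was not analysed here. Several hosts are paralogues that carry copies of one microRNA family, recognised by the seed, bases 2 to 8 of the mature strand. The sequences that follow (RefSeq, GRCm38.p6, 5′ to 3′, seed in capitals) are shown because each family or gene returns in the results; the first ones show the seeds that paralogous hosts share.
miR-128-3p (Arpp21, R3hdm1): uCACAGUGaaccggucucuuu
miR-199a-3p (Dnm2, Dnm3): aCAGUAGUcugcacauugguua
miR-199b-3p (Dnm1): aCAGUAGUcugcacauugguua
miR-103-3p (Pank2, Pank3): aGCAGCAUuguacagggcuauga
miR-107-3p (Pank1): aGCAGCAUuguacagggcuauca
miR-26a-5p (Ctdsp2, Ctdspl): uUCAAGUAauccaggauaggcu
miR-26b-5p (Ctdsp1): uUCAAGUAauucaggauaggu
miR-218-5p (Slit2, Slit3): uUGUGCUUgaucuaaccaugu
miR-148b-3p (Copz1): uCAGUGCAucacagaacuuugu
miR-152-3p (Copz2): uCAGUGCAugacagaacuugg
miR-211-5p (Trpm1): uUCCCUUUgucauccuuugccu
miR-204-5p (Trpm3): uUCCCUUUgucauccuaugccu
miR-504-5p (Fgf13): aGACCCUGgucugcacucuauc
miR-1898 (Zfr): aGGUCAAGguucacaggggauc
miR-15b-5p (Smc4): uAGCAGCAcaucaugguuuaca
miR-153-3p (Ptprn2): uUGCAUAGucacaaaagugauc
miR-340-5p (Rnf130): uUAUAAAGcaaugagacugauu
miR-346-5p (Grid1): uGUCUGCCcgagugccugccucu

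The deleted interval checked the genotype labels. Of 19 measured interval genes, PFC arrays had 19 called lower (median 42.7% of wild type) and HPC arrays 18 (48.1%), and no array went against its label. Dgcr8 by its brightest probe set stood at 60.3% (PFC) and 61.9% (HPC) of its wild-type signal. The brightest probe set of a gene is the one with the highest mean over the 20 arrays of a region, and it serves here only to choose 1 probe set per gene. Lpp is the only gene of the 46 on chromosome 16, and its start lies 5.42 Mb beyond the last listed interval gene. Of the 130 probe sets, 93 for 43 genes were tested in each region and 33 in neither, and Copz2, Trpm1 and Gabre had none that passed the filter. The highest single-array signal of those genes was 4.03 for Copz2, 3.92 for Trpm1 and 2.37 for Gabre. Genotype and array batch were unevenly spread. Among PFC arrays, 3 wild types and 1 Df(16)A/+ were hybridized in run 3, 7 and 5 in run 4, and 4 Df(16)A/+ alone in run 5. Of the HPC arrays, 9 wild types shared run 2 with 2 Df(16)A/+, and the other 8 Df(16)A/+ made up run 3. The remaining HPC wild type, replicate 9, was alone in run 1 and in lot 5. Among the HPC Df(16)A/+ arrays 2 were of lot 3 and 1 of lot 4, and all other HPC arrays were of lot 1. Chip lot 2 was used for 6 PFC wild types alone, all of them in run 4, where every Df(16)A/+ array was of lot 1.

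In PFC 17 of the 93 probe sets were called, for 13 genes, against 18.5% of all 21653 tested probe sets. By direction, 12 were higher in 9 genes, where 5.94% of all tested probe sets were higher, and 5 were lower in 5 genes, where 12.5% of all were lower. The median difference over the 93 was 0.02, against -0.02 over all tested probe sets, and 57 of the 93 differences were positive. The groups overlapped in every host probe set, while 0.928% of all tested probe sets had groups without overlap. In bulk tissue, fewer cells of a type and less RNA per cell cannot be told apart, and this holds for each signal below. All 12 rises were in probe sets other than the brightest of their gene. Of 43 brightest probe sets 0 rose and 4 fell, against 3.27% and 15.7% over all genes. Of the 50 other probe sets 12 rose and 1 fell, against 9.81% and 8.92% over all genes. Taking both directions together, the array-wide shares were 19% for brightest and 18.7% for other probe sets. Without a multiple-testing adjustment 26 of the 93 (28%) passed p under 0.05, below the 33.1% of all tested probe sets. The plot of differences by gene shows these probe sets one by one.

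**Figure D1:**
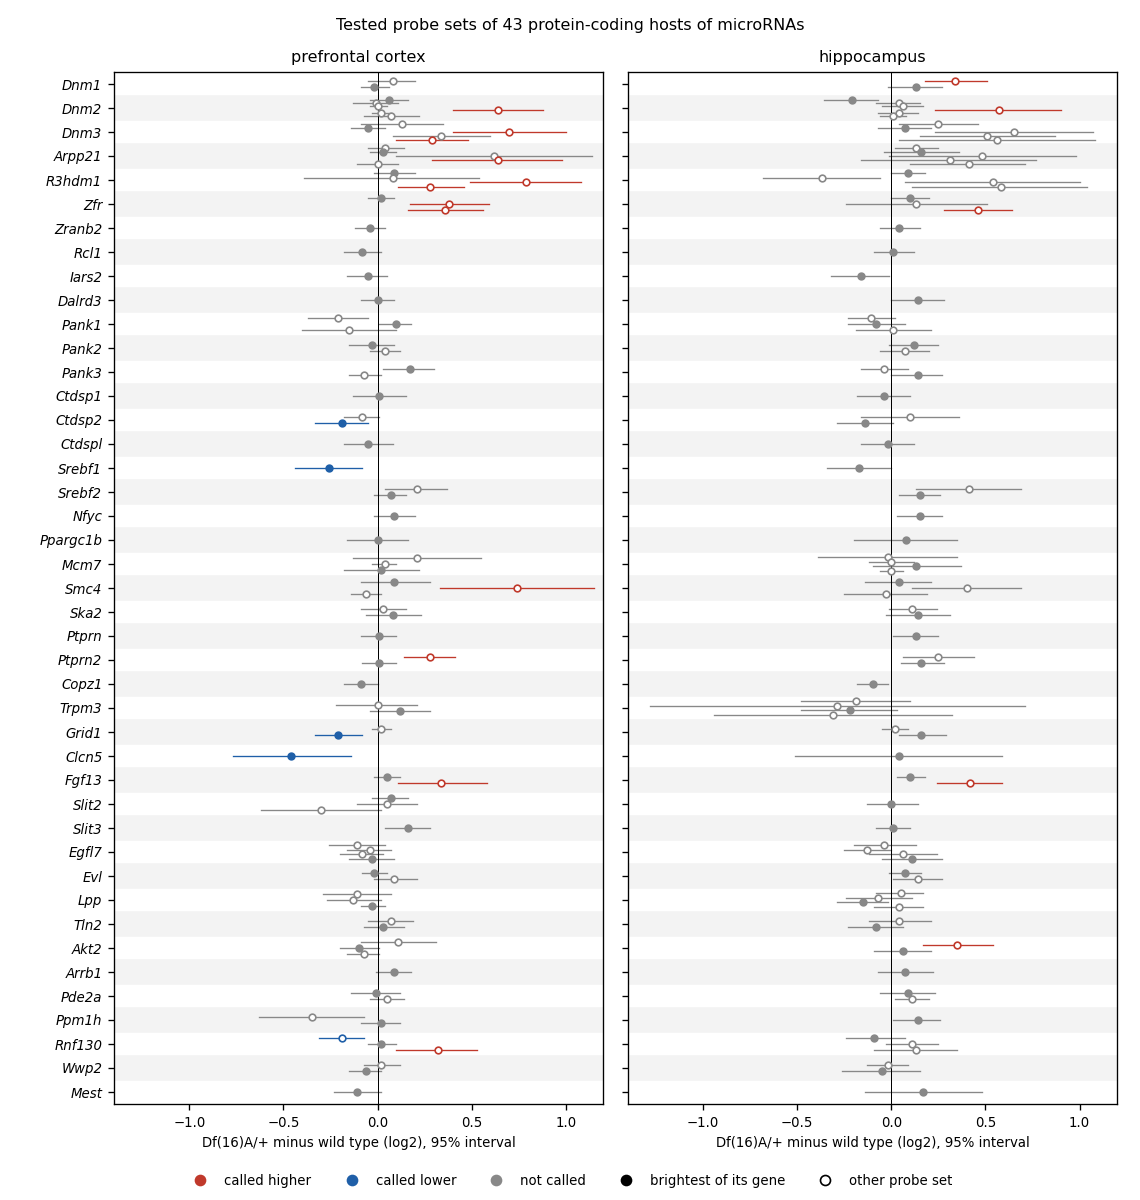
Fitted difference (log2, Df(16)A/+ minus wild type) with its 95% interval for each tested probe set of 43 host genes in both regions, 10 arrays a group. Red and blue mark called rises and falls, and filled points are the brightest probe set of a gene: the 12 prefrontal and 5 hippocampal rises are all open points.

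Of the RNA-binding and RNA-processing hosts, 5 of 16 prefrontal probe sets rose, where 5.94% of all tested probe sets did and 9.81% of those other than the brightest of their gene. No role group was tested as a group. R3hdm1 (chr1:128103282-128237738, plus strand) encodes a protein with an R3H nucleic acid-binding domain and carries Mir128-1. By probe set 1457336_at its wild-type arrays ran from 8.71 through a median of 9.06 to 9.57, and the Df(16)A/+ arrays from 9.04 through 10.05 to 10.17. The difference was 0.79 ± 0.14 (SE, n = 10 and 10, limma adjusted p = 0.00097), the largest among the 93, and 8 of 10 Df(16)A/+ arrays lay above every wild-type array. Its probe set 1458539_at also rose, from 9.1, 9.63 and 9.77 (lowest, median, highest) to 9.47, 9.89 and 10.1. That difference was 0.28 ± 0.08 (limma adjusted p = 0.023), again with 8 arrays above all wild types. The brightest R3hdm1 probe set (1433871_at) differed by 0.09 ± 0.05 (95% interval -0.02 to 0.2, limma adjusted p = 0.23), so the probe sets of this gene did not share one value.

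Arpp21 (chr9:112065091-112236288, minus strand), a cAMP-regulated phosphoprotein of neurons that binds RNA, carries the second copy, Mir128-2, with the same mature miR-128-3p. Its probe set 1442121_at ran from 8.07 through 8.94 to 9.76 in wild type and from 9.09 through 9.62 to 10.14 in Df(16)A/+. The difference was 0.64 ± 0.17 (limma adjusted p = 0.012), with 10 of 10 Df(16)A/+ arrays above the wild-type mean but 3 above every wild-type array. Probe set 1440429_at differed by 0.62 ± 0.25 and did not pass (limma adjusted p = 0.082). The brightest, 1424248_at, differed by 0.03 ± 0.03 (95% interval -0.04 to 0.1).

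Zfr (chr15:12117563-12185449, plus strand), a zinc finger protein that binds double-stranded RNA, rose by both of its tested probe sets other than the brightest. Probe set 1444096_at ran from 4.7 through 5.26 to 5.44 in wild type and from 5.25 through 5.56 to 5.98 in Df(16)A/+, a difference of 0.38 ± 0.10 (limma adjusted p = 0.013). Probe set 1449552_at ran from 10.84 through 11.3 to 11.6 and from 11.19 through 11.68 to 11.99, a difference of 0.36 ± 0.09 (limma adjusted p = 0.012). The groups overlapped in each, with 7 and 6 of 10 Df(16)A/+ arrays above all wild types. The brightest, 1419650_at, differed by 0.02 ± 0.03. The other genes of this group were not called and have 1 tested probe set each. Zranb2, a splicing-related zinc finger protein with Mir186, differed by -0.04, Rcl1, which acts in ribosomal RNA processing, by -0.08, the mitochondrial isoleucine tRNA synthetase Iars2 by -0.05, and Dalrd3, with Mir191 and Mir425, by less than 0.01.

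The dynamins are GTPases that pinch vesicles off membranes, and in each of the 3 genes the annotated miR-199 hairpin lies on the opposite strand, so the hairpin is not part of the dynamin pre-mRNA. In PFC 3 of their 13 probe sets rose, beside the same array-wide 5.94%, and 9.81% of those other than the brightest of their gene. Dnm3 (chr1:161982450-162478321, minus strand) by 1436875_at held all wild-type arrays between 9.28 and 9.58 (median 9.41), while Df(16)A/+ arrays ran from 9.19 through 10.29 to 10.57. The difference was 0.70 ± 0.14 (limma adjusted p = 0.0028): 8 Df(16)A/+ arrays lay above every wild type and the other 2 within or below the wild-type range. Dnm3 by 1446265_at had the same shape, 9.56, 9.7 and 9.98 in wild type and 9.38, 10.11 and 10.27 in Df(16)A/+, with a difference of 0.29 ± 0.09 (limma adjusted p = 0.033) and 7 arrays above all wild types. The ubiquitous Dnm2 (chr9:21424908-21507759, plus strand) rose by 1432004_a_at, from 5.32, 5.91 and 6.18 to 6.00, 6.47 and 7.03, a difference of 0.64 ± 0.11 (limma adjusted p = 0.0011) with 10 of 10 arrays above the wild-type mean. Its 5 other tested probe sets differed by -0.01 to 0.07, and the brightest of Dnm3 by -0.05 ± 0.04. The neuronal Dnm1 differed by 0.08 ± 0.06 and -0.02 ± 0.04 and was not called. By strand of the microRNA, 3 of 14 probe sets rose and 0 fell among the genes with a hairpin on the opposite strand. Among those with one on the same strand 8 of 66 rose and 4 fell. Of all tested probe sets 5.94% rose and 12.5% fell, and of those other than the brightest of their gene 9.81% and 8.92%. The strand classes were not tested against each other.

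Among the channels and receptors, Fgf13 (chrX:59062139-59585572, minus strand), an intracellular fibroblast growth factor homologue that modulates sodium channels, rose by 1418498_at. Its arrays ran from 9.33 through 9.75 to 10.04 in wild type and from 9.75 through 10.1 to 10.59 in Df(16)A/+. The difference was 0.34 ± 0.11 (limma adjusted p = 0.036), 10 of 10 arrays lay above the wild-type mean, and the brightest probe set (1418497_at) differed by 0.05 ± 0.03. Clcn5 (chrX:7153810-7319358, minus strand), an endosomal chloride and proton exchanger whose span holds 5 microRNA genes, fell in its only tested probe set (1429400_at). Its signals were near the filter, 4.75, 4.81 and 5.3 in wild type and 3.61, 4.63 and 4.99 in Df(16)A/+, with a difference of -0.46 ± 0.15 (limma adjusted p = 0.04) and 7 arrays below every wild type. Grid1, a delta-type glutamate receptor with Mir346, fell by its brightest probe set 1441499_at, from 8.77, 8.94 and 9.13 to 8.55, 8.76 and 8.98. That difference was -0.21 ± 0.06 (limma adjusted p = 0.02), while its other probe set differed by 0.02 ± 0.02. The cation channel Trpm3 was not called, with differences of 0 to 0.12.

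Of the genes of chromosome structure and cell division, Smc4 (chr3:69004738-69034623), a condensin subunit with Mir15b and Mir16-2, rose by 1427276_at. The probe set was at the edge of detection: 3.85, 4.14 and 4.55 in wild type against 4.15, 4.73 and 5.85 in Df(16)A/+, a difference of 0.74 ± 0.20 (limma adjusted p = 0.013) with 6 arrays above all wild types. Its other probe sets differed by 0.09 ± 0.09 and -0.06 ± 0.04. The helicase subunit Mcm7, with 3 microRNA genes of the Mir106b cluster, and the kinetochore subunit Ska2, with Mir301, were not called (differences 0.02 to 0.21 and 0.03 to 0.08).

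Of the transcription regulators Srebf1, which drives fatty acid synthesis genes, fell by 1426690_a_at, its only probe set, from 8.08, 8.4 and 8.83 to 7.83, 8.13 and 8.54 (difference -0.26 ± 0.09, limma adjusted p = 0.044). The sterol regulator Srebf2, host of Mir33, went the other way without passing, at 0.21 ± 0.08 (limma adjusted p = 0.067) and 0.07 ± 0.04. The CCAAT-binding subunit Nfyc differed by 0.09 ± 0.05 and the coactivator Ppargc1b by 0 ± 0.07, and neither was called.

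The remaining hosts with a shared seed follow. Of the small CTD phosphatases, which take phosphate from RNA polymerase II and host miR-26, Ctdsp2 fell by 1451075_s_at from 10.49, 10.62 and 10.85 to 10.2, 10.41 and 10.86 (difference -0.19 ± 0.07, limma adjusted p = 0.046). Ctdsp1 differed by 0.01 (95% interval -0.13 to 0.15) and Ctdspl by -0.05 (-0.18 to 0.08). The 3 pantothenate kinases, which start coenzyme A synthesis and host miR-103 and miR-107, had 7 probe sets between -0.21 and 0.17, none called. The nearest to the threshold was Pank1 1418715_at at -0.21 ± 0.08 (limma adjusted p = 0.059), while the brightest Pank1 probe set stood at 0.10 ± 0.04. The axon guidance ligands Slit2 and Slit3, which host miR-218, were not called, with Slit3 at 0.16 ± 0.06 (limma adjusted p = 0.064) and the brightest of Slit2 at 0.07 ± 0.05. Ptprn2, a receptor-like protein of secretory granules with Mir153, rose by 1425724_at from 5.84, 6.15 and 6.29 to 6.18, 6.41 and 6.63 (difference 0.28 ± 0.06, limma adjusted p = 0.0058, 7 arrays above all wild types), while its brightest differed by 0.01 ± 0.04. Its relative Ptprn differed by 0.01 ± 0.04, and the coatomer subunit Copz1 by -0.09 ± 0.04, not called.

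Rnf130, a membrane ubiquitin ligase with Mir340, was the only host called in both directions. Its probe set 1440941_at rose from 6.43, 7.07 and 7.41 to 7.06, 7.37 and 7.68 (difference 0.32 ± 0.10, limma adjusted p = 0.036), and 1429265_a_at fell from 8.92, 9.23 and 9.35 to 8.76, 8.99 and 9.17 (difference -0.19 ± 0.06, limma adjusted p = 0.028). The brightest, 1435489_at, differed by 0.02 ± 0.03. The other signalling genes and enzymes were not called: the kinase Akt2, the receptor adaptor Arrb1, the phosphodiesterase Pde2a, the phosphatase Ppm1h, the ubiquitin ligase Wwp2 and the imprinted Mest lay between -0.35 and 0.11. The guidance, adhesion and cytoskeleton genes gave 15 probe sets between -0.3 and 0.16, none called. They include Egfl7, a secreted protein of endothelium with Mir126a, at -0.11 to -0.03 over 4 probe sets. Beside it, 1 of 10 measured endothelial marker genes was called lower, their mean signal ran from 7.06 to 7.5 in wild type and from 6.67 to 7.62 in Df(16)A/+, and Pecam1, Cdh5, Kdr and Tie1 were under the filter. The part of these cells in the Egfl7 values was not tested. Evl, which acts on actin, Lpp of cell contacts and the talin Tln2 complete the group.

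**Figure D2:**
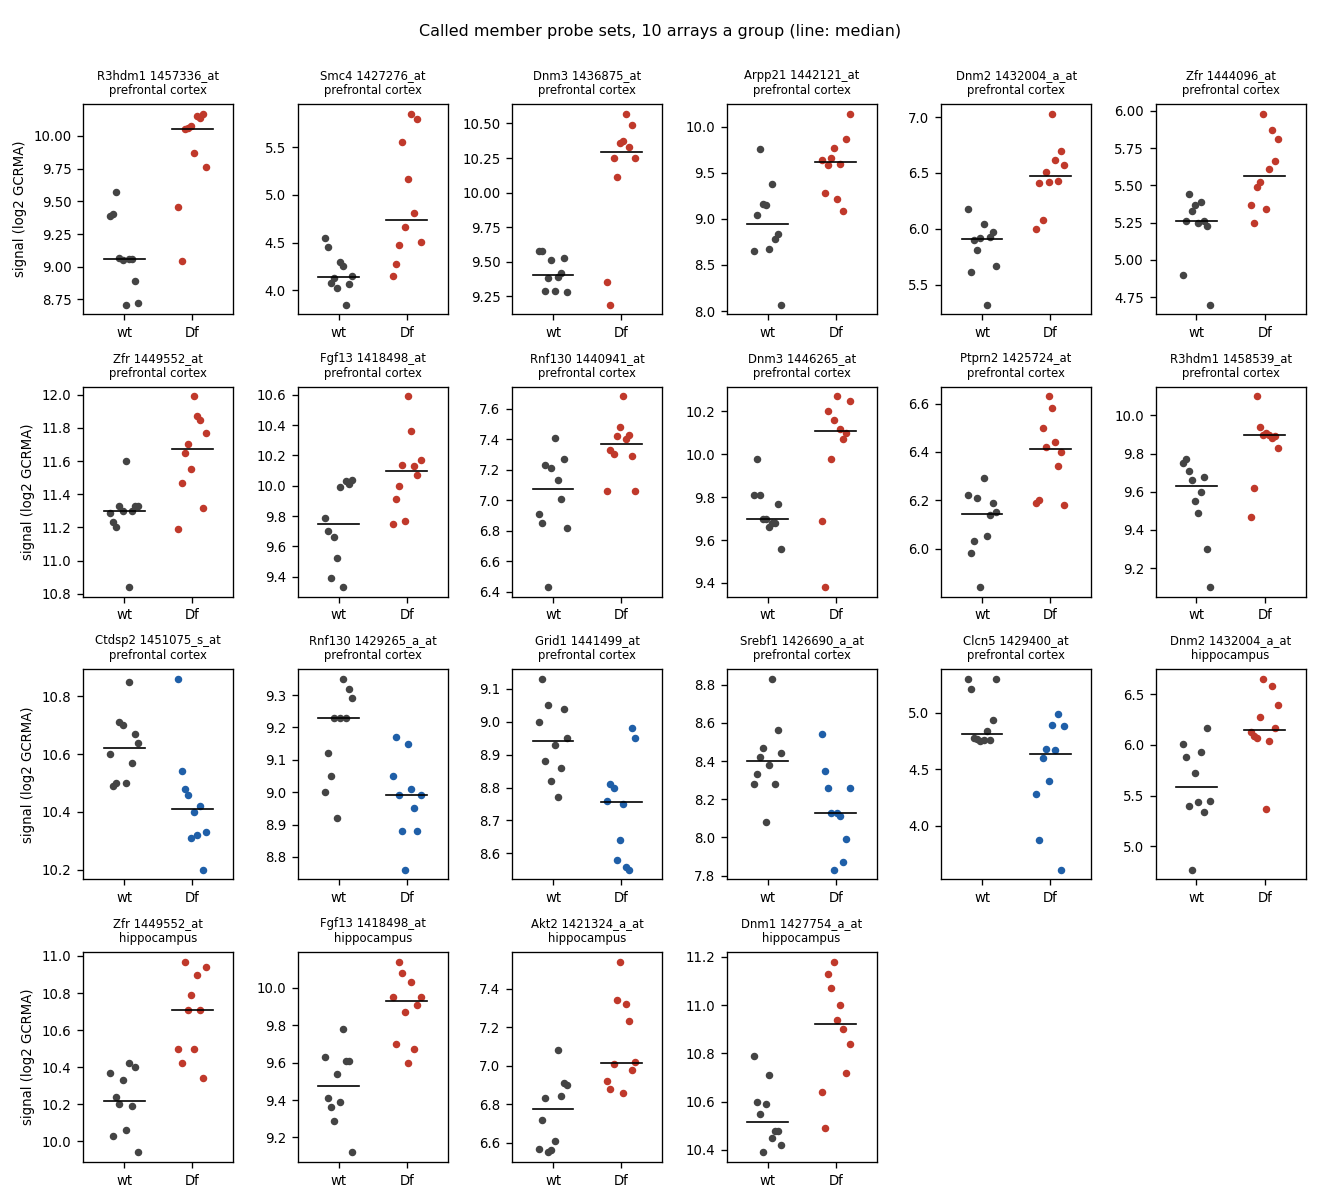
Signal (log2 GCRMA) of every array for the 17 probe sets called in the prefrontal cortex and the 5 called in the hippocampus, 10 arrays a group with the median as a line. The groups overlap in every panel, and in several prefrontal rises 2 Df(16)A/+ arrays lie among the wild types.

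The rises were not spread evenly over the prefrontal arrays. Df(16)A/+ replicates 1 and 2 held 0 and 1 of the 12 rising probe sets above all wild-type arrays, and the other 8 arrays held 7 to 11. Averaged over those 12 probe sets, replicates 1 and 2 lay 0.10 and 0.10 above the wild-type mean, within the reach of the wild-type arrays (-0.21 to 0.11), and the others 0.46 to 0.70 above it. These averages are over probe sets called for being higher in the group, so only the spread between its arrays is of interest. The 794 rising probe sets of other genes that were not the brightest of theirs had the same order, 0.11 and 0.06 in replicates 1 and 2 and 0.37 to 0.54 in the other 8. The 16 rising probe sets of noncoding primary transcripts did not: they stood at 0.60 and 0.55 in replicates 1 and 2 and at 0.44 to 0.55 in the others. Replicates 1 and 2 shared run 4 and lot 1 with Df(16)A/+ arrays that held the rise. Without replicate 1 the member calls numbered 20, and without replicate 2 they numbered 22. They numbered 11 without replicate 5 and also without wild-type replicate 7.

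**Figure D3:**
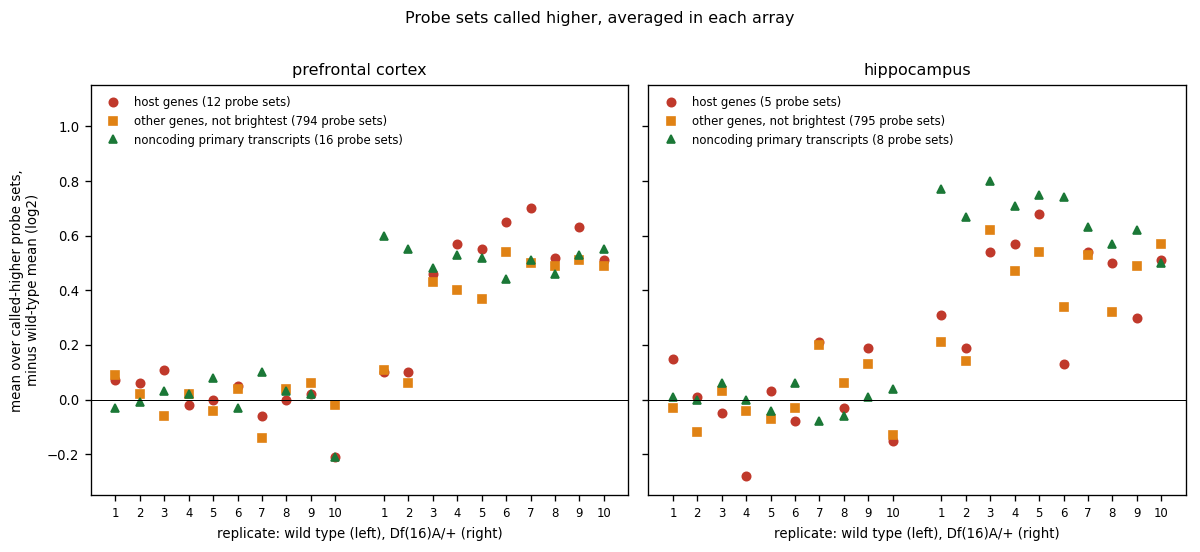
Mean over probe sets called higher, minus the wild-type mean (log2), in each array, for host genes, for other genes' probe sets that are not their brightest, and for noncoding primary transcripts. In the prefrontal cortex Df(16)A/+ replicates 1 and 2 sit at 0.06 to 0.11 for the first 2 sets and at 0.55 to 0.60 for the noncoding transcripts.

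Since all rises were in secondary probe sets, each probe set was also set against the brightest of its gene within the same array, a fit added after the data were seen. There 11 of 50 PFC host probe sets in 8 genes rose against their brightest and 4 in 4 genes fell. Over the 8215 such probe sets of all genes 10.9% rose and 4.09% fell, 15% together. The 12 rises were chosen in these same arrays, and the brightest probe sets of their genes differed by only -0.05 to 0.09. The fit is therefore not an independent check of them. Of the 12 rises, 9 were called higher in it, the exceptions being in Fgf13, R3hdm1 (1458539_at) and Rnf130. The largest were Dnm3 1436875_at at 0.75 ± 0.14 (limma adjusted p = 0.0019) and R3hdm1 1457336_at at 0.69 ± 0.15 (limma adjusted p = 0.006). The 4 that fell were in Rnf130 (-0.22), Pank1 (-0.31), Pank3 (-0.24) and Ppm1h (-0.37). The annotation gives each probe set a source sequence, and 8 of the 12 prefrontal rises came from expressed sequence tags, which made up 49 of the 93 tested. Of the others 3 of 25 from other cDNA rose, 1 of 12 from RefSeq transcripts and 0 of 7 with none given. Over all genes 6.97% of probe sets made from such tags rose, 4.8% of those from other cDNA, 4.74% of those from RefSeq transcripts and 6.58% of those with none given. The hippocampal rises did not come from such tags: 0 of 48 rose there, 3 of 25 from other cDNA, 2 of 12 from RefSeq transcripts and 0 of 8 with none given, where 5.45%, 5.08%, 5.9% and 5.72% rose over all genes. Where in a gene these probe sets lie, in exon, intron or UTR, was not analysed here.

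In the hippocampus 5 of 93 host probe sets were called, all higher, in 5 genes. Over the array 6.47% were called, 5.19% higher and 1.28% lower, so the share of host rises was near the background. The median host difference was 0.07 against 0.02, and 67 of 93 were positive. Again 0 of the 43 brightest probe sets were called by limma, where 3.66% were over all genes, 2.11% higher and 1.55% lower; 12 of them had an unadjusted p under 0.05, and none was called by Welch's test. Of the 50 others 5 rose and 0 fell, where 9.99% rose and 0.849% fell, 10.8% together. The groups overlapped in every host probe set, against 0.26% without overlap over the array. Without adjustment 32 of the 93 (34.4%) passed p under 0.05, against 24.4% of all tested probe sets.

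Zfr 1449552_at rose most firmly, from 9.94, 10.22 and 10.42 to 10.34, 10.71 and 10.97 (difference 0.46 ± 0.09, limma adjusted p = 0.0039), with 8 arrays above all wild types. Fgf13 1418498_at rose from 9.12, 9.48 and 9.78 to 9.6, 9.93 and 10.14 (difference 0.42 ± 0.08, limma adjusted p = 0.0051), with 7 above all wild types. Dnm2 1432004_a_at rose from 4.77, 5.59 and 6.17 to 5.37, 6.15 and 6.65 (difference 0.57 ± 0.16, limma adjusted p = 0.039). These 3 are the host probe sets called in both regions, each of them in the same direction. The other 2 were Dnm1 1427754_a_at, from 10.39, 10.52 and 10.79 to 10.49, 10.92 and 11.18 (difference 0.34 ± 0.08, limma adjusted p = 0.014), and Akt2 1421324_a_at, from 6.55, 6.77 and 7.08 to 6.86, 7.02 and 7.54 (difference 0.35 ± 0.09, limma adjusted p = 0.024). Akt2, a kinase of insulin signalling, is one of the 2 genes with no annotated microRNA in its span. The brightest probe sets of these 5 genes differed by -0.21 to 0.13, with the smallest limma adjusted p at 0.066, in Dnm2. Set against the brightest of their gene within each array, 7 of 50 HPC probe sets in 5 genes rose and 1 fell, where 10.1% rose and 1.36% fell over all genes, 11.4% together. They include 4 of the 5 rises, with Dnm2 1432004_a_at at 0.78 ± 0.19 (limma adjusted p = 0.014), and the fall was in R3hdm1 1439572_at (-0.46 ± 0.14, limma adjusted p = 0.035). The 5 rises were chosen in the same arrays, so this is not an independent check of them.

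Of 89 host probe sets tested in both regions, 60 had differences of the same sign, 46 positive and 14 negative. All 12 prefrontal rises were positive in the hippocampus, where 63.6% of all probe sets other than the brightest of their gene were positive, and 3 of the 5 falls were negative. With hybridization run as a block in the HPC fit, 6 of those 12 were negative: both of R3hdm1, both of Dnm3, Arpp21 1442121_at (-0.50) and Zfr 1444096_at (-0.12). R3hdm1 1457336_at and Dnm3 1436875_at, with large PFC rises, were not called there, and their values moved with the run block. Of the HPC runs, run 2 alone held both genotypes, with 9 wild types and Df(16)A/+ replicates 1 and 2. The blocked values therefore rest on those 2 Df(16)A/+ arrays, and an effect of the run cannot be told apart from them. R3hdm1 stood at 0.54 ± 0.22 (limma adjusted p = 0.14) without the block and at -0.65 with it. Dnm3 stood at 0.65 ± 0.20 (limma adjusted p = 0.055) without the block and at -0.01 with it. The difference between the regions was itself tested as an interaction, in which 2.99% of 20306 probe sets were called, 2.7% with the higher difference in HPC and 0.286% with the higher in PFC. Grid1 1441499_at was the 1 host among them: its difference was -0.21 in PFC and 0.16 in HPC (interaction 0.37 ± 0.08, limma adjusted p = 0.019). The hippocampal value alone was not called (limma adjusted p = 0.087). The contrast took no batch into account, and it assumes a constant offset between regions that appear to be normalized apart.

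The hippocampal rises also varied between arrays. Df(16)A/+ replicates 1 and 2 were hybridized in run 2 with 9 wild types. Averaged over the 5 probe sets, these 2 replicates lay 0.31 and 0.19 above the wild-type mean. Replicates 3 to 10 lay from 0.13 (replicate 6) to 0.68 above it. The hippocampal count rose to 13 without replicate 1 and to 13 without replicate 2. Batch moved with genotype in both regions, so each call was refitted with the batches. With the run as a block, HPC differences rest on run 2 alone, with its 9 wild types and 2 Df(16)A/+. Taking hybridization run as a block, 5 prefrontal host probe sets were called (9.25% of all tested), and 0 in the hippocampus (0.156%). With chip lot as a block the counts were 3 (4.55%) and 2 (2.06%), and with both 3 (2.1%) and 0 (0.18%). Within the single prefrontal run 4 the count was 1 (2.36%) and within lot 1 it was 0 (1.52%). Within hippocampal run 2 it was 0 (0.147%) and within lot 1 it was 2 (1.88%).

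No difference changed sign in these refits within the region where it was called, while sizes moved to differing degrees. Dnm2 1432004_a_at kept its size in both regions: PFC values were 0.56 with run, 0.64 with lot and 0.67 with run and lot in the fit, and HPC values 0.56, 0.60 and 0.56, though none of the HPC values passed. R3hdm1 1457336_at stayed called with the run (0.71) and within run 4 (0.82, limma adjusted p = 0.038), and Dnm3 1436875_at with the run (0.54) and with the lot (0.69). Arpp21 1442121_at was larger with the run (0.80) and with run and lot together (1.28). With run and lot together, PFC genotypes were compared only within run 3 and within lot 1 of run 4. The first held 3 wild types and 1 Df(16)A/+, the second wild-type replicate 10 and 5 Df(16)A/+. PFC values with both blocks therefore rest on these arrays, with a single array on one side in each place. Dnm1 1427754_a_at in the hippocampus stood at 0.01 once the run was a block, and Akt2 1421324_a_at at 0.16. The plot of batch refits shows each probe set.

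**Figure D4:**
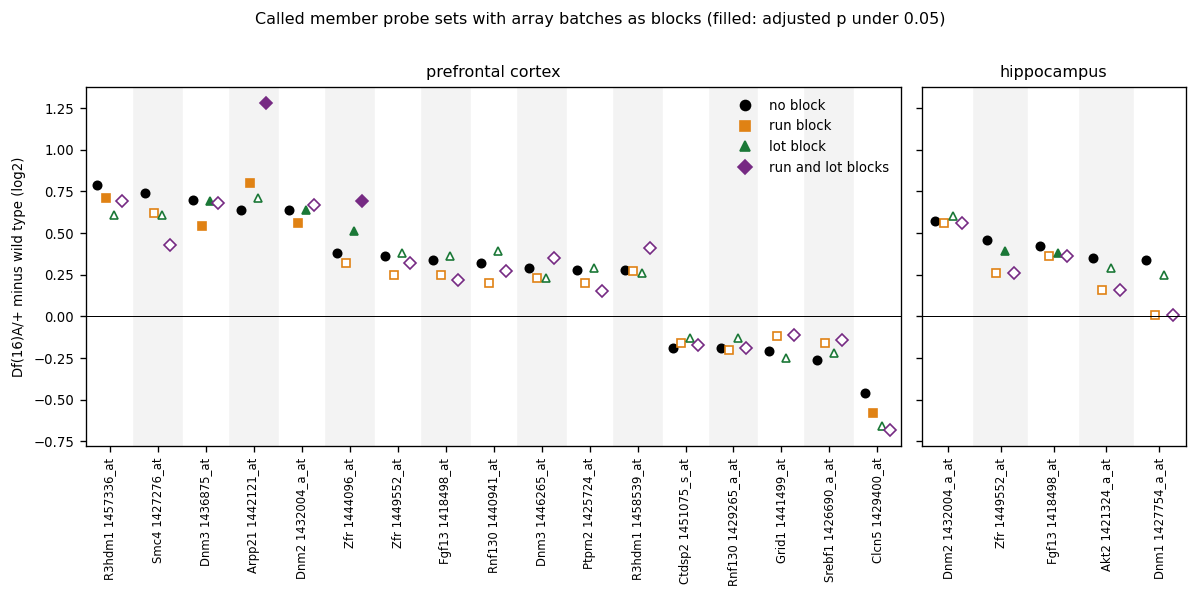
Fitted difference (log2) of the 17 prefrontal and 5 hippocampal called probe sets with no block and with hybridization run, chip lot or both as blocks. Filled symbols have an adjusted p under 0.05: no hippocampal difference passed with the run as a block, and 5 prefrontal ones did.

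Trpm3, the longest of the hosts and the source of miR-204, varied with a marker list. Choroid plexus, the tissue that makes cerebrospinal fluid, expresses Trpm3, and its marker genes varied widely between the hippocampal samples. The mean of 10 choroid plexus genes ran from 4.79 to 9.92 in wild-type arrays and from 5.18 to 9.58 in Df(16)A/+ arrays. None of those 10 genes was called between genotypes, though their median difference was -0.41. The 4 tested Trpm3 probe sets were lower too, at -0.31 to -0.19, none called. Trpm3 1443723_at ran from 3.53 through 5.37 to 6.54 in wild type and from 3.39 through 5.07 to 6.14 in Df(16)A/+, and its difference of -0.29 ± 0.47 was not called. Over the 20 arrays it followed the choroid plexus mean (Pearson r = 0.91, Spearman rho = 0.91, permutation p = 1e-05 for each, the smallest that the permutations can give). Of 4 relations computed, 1 for each tested Trpm3 probe set, r was 0.66 to 0.91 and rho 0.80 to 0.93, with Benjamini-Hochberg adjusted permutation p of 0.0014 or less for r. For 1443723_at r was 0.86 in wild type and 0.95 in Df(16)A/+, 0.88 within run 2 and 0.97 within run 3, and 0.95 without the 2 arrays farthest from the median. The weakest, the brightest probe set 1456633_at, had r = 0.66 and 0.86 without those 2 arrays. The relation was looked for after the values were seen. Among PFC arrays 8 of the 10 choroid plexus genes on the array were under the filter, Ttr among them. There 1443723_at did not exceed 3.49 and 1456923_at did not exceed 2.52. The other tested Trpm3 probe sets stayed well above the filter in PFC, 1456633_at at 7.76 to 8.5 and 1439026_at at 7.08 to 7.96. In HPC wild-type replicate 2, with the lowest choroid plexus mean (4.79), 1456633_at still stood at 10.12.

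**Figure D5:**
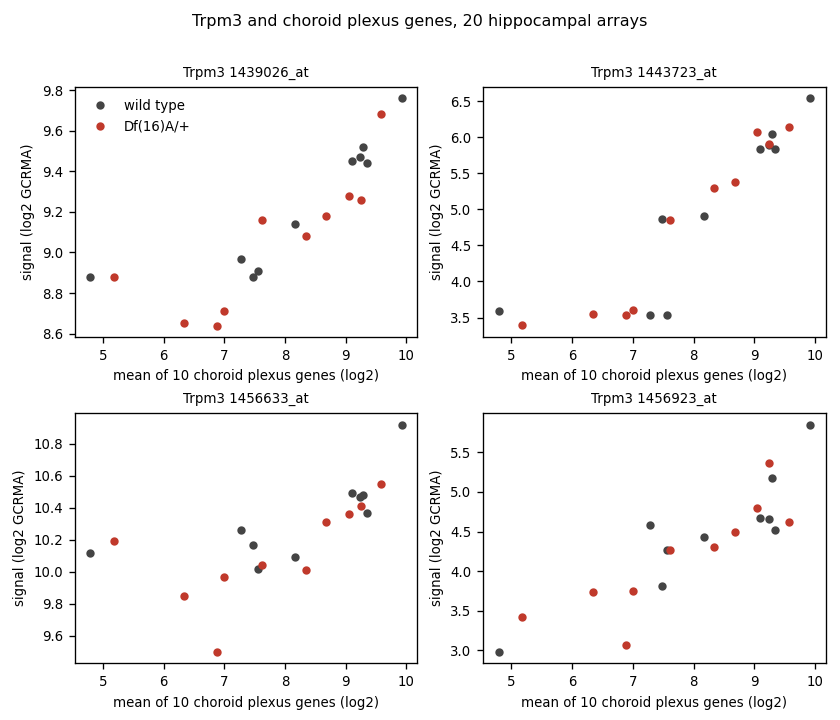
Signal of 4 Trpm3 probe sets against the mean of 10 choroid plexus genes (both log2) in the 20 hippocampal arrays, wild type in grey and Df(16)A/+ in red. The genotypes overlap along both axes, and r is 0.66 to 0.91.

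Noncoding transcripts that hold microRNAs were set beside the protein-coding hosts, using those whose span holds an annotated microRNA. The list was chosen with earlier results of these data known, so its counts of rises are not an independent result. Of 29 prefrontal probe sets in 12 genes, 16 in 10 genes rose and 0 fell, with a median of 0.24. Over all tested prefrontal probe sets 5.94% rose and 12.5% fell. By their brightest probe sets 9 of 12 genes rose, where 0 of 43 protein-coding hosts did and 3.27% of all genes. The others called in PFC were A330023F24Rik (1.04 ± 0.07), C130071C03Rik (0.56 ± 0.05), Ftx (0.56 ± 0.12), Mir22hg (0.52 ± 0.04), Mir9-3hg (0.47 ± 0.04), Mir124-2hg (0.19 ± 0.06), 2 probe sets of Mirg (0.35 and 0.73) and 5 of Meg3 (0.15 to 0.53). Lncppara, which holds Mirlet7b and Mirlet7c-2, ran from 6.35, 6.55 and 6.81 to 7.37, 7.82 and 8.15, a difference of 1.22 ± 0.09 (limma adjusted p = 5.9e-09) with no overlap between the groups. Dleu2, whose Mir16-1 gives the same mature miR-16 as the Mir16-2 of Smc4, rose by its brightest 1427411_s_at by 0.63 ± 0.12 (limma adjusted p = 0.0015), also without overlap, where the brightest of Smc4 stood at 0.09. Over the hippocampal arrays 5.19% of all tested probe sets rose, and 2.11% of the brightest. There 8 of 28 noncoding probe sets in 7 genes rose and 0 fell, among them the brightest of 6 of the 12 genes. They were in Lncppara (0.95), Dleu2 (0.47 and 0.86), Mirg (0.85), A330023F24Rik (0.82), C130071C03Rik (0.58), Mir22hg (0.48) and Mir124a-1hg (0.39). With run and lot as blocks, 14 PFC and 5 HPC noncoding probe sets were called, beside the array-wide shares given above for these blocks. Those fits rest on the arrays that shared a batch with the other genotype, given above. No value was tested between the lists, and counts of probe sets in one gene are not independent.

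Paralogues of the hosts whose own span holds no microRNA on their strand gave a second comparison. Of 71 probe sets 5 rose and 2 fell in PFC, and of 73 in HPC 6 rose and 0 fell. Over all tested probe sets 5.94% rose and 12.5% fell in PFC, and 5.19% rose and 1.28% fell in HPC. As with the hosts, the brightest of each gene never rose (0 of 35 and 0 of 36), where only 3.27% and 2.11% did over all genes. The PFC rises were in Ppargc1a (0.72 ± 0.17), Nfyb (0.29 ± 0.07) and 2 probe sets of Enah (0.38 ± 0.12 and 0.24 ± 0.08), and in Trpm7 1416801_at, whose wild-type median of 3.96 is under the filter, so that it passed the filter mainly through its Df(16)A/+ arrays and no size is given. The other Trpm7 probe sets, 1416799_at (the brightest), 1416800_at and 1431355_s_at, stood at 0.05, 0.11 and -0.20 and were not called. In the hippocampus they were Ppargc1a (0.72 ± 0.20), Enah (0.44 ± 0.10), Pde10a (0.33 ± 0.09), Dnm1l (0.26 ± 0.07), Iars (0.25 ± 0.07) and Wwp1 (0.25 ± 0.07). The PFC falls were in Tln1 (-0.27 ± 0.04) and Pde1a (-0.18 ± 0.06). The share of hosts that rose, 12 of 93, was not tested against that of paralogues.

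Of the proteins that make or use microRNAs, 7 of 73 prefrontal probe sets rose and 6 fell, and 4 of 72 rose and 4 fell in the hippocampus, with both Dgcr8 probe sets among the falls. Over all tested probe sets 5.94% rose and 12.5% fell in PFC, and 5.19% rose and 1.28% fell in HPC. The list was not tested as a group. The PFC rises were in single probe sets of the nuclease Drosha (0.48 ± 0.15), Fmr1 (0.22 ± 0.06) and Tnrc6b (0.15 ± 0.04), and in a pair of probe sets each of the slicer Ago2 (0.66 ± 0.13 and 0.19 ± 0.05) and of Khsrp (0.30 ± 0.06 and 0.24 ± 0.07). The other falls were in Prkra (-0.31 ± 0.07), Hnrnpa1 (-0.26 ± 0.07), Tnrc6a (-0.25 ± 0.07) and Ran (-0.11 ± 0.04). In the hippocampus the nuclease Xrn2 (0.58 ± 0.12), Khsrp (0.39 ± 0.12), Fmr1 (0.29 ± 0.08) and Adar (0.26 ± 0.06) rose, and Hnrnpa1 (-0.31 ± 0.08) and Tnrc6c (-0.21 ± 0.06) fell beside Dgcr8. Drosha 1438440_at is near the filter, at 3.45 to 4.42 in wild type, and the other Drosha probe sets stood at -0.09 ± 0.05 (the brightest) and 0.04 ± 0.03. The brightest of Ago2 stood at 0.08 ± 0.06 (limma adjusted p = 0.4), of Khsrp at -0.01 ± 0.05 and of Fmr1 at -0.03 ± 0.04 in PFC, none called. Tnrc6b in PFC and Xrn2 in HPC rose by their brightest.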

How the data were processed

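The deposited values are log2 signals of 45101 probe sets, made with GCRMA per the submitters' processing notes; which version and settings were used, and on which arrays together, the sources used here do not state. Array records deposited beside them were used for hybridization run and chip lot alone. Each of the 40 arrays is 1 sample, grouped by title. The number of arrays limits the precision, and differences within a region were analysed since the regions appear to be normalized apart.

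The array annotation gave 34945 probe sets 1 gene and 932 several, and those with several genes were left out of the member lists. Hosts and microRNAs were placed with the RefSeq annotation of GRCm38.p6, while the array annotation names no build. Genotypes were compared by limma 3.58.1 under R 4.3.3 (lmFit, then two-sided eBayes tests of 10 against 10 arrays without covariates, Benjamini-Hochberg at 0.05) after the filter above 4 in at least 10 arrays, with statmod 1.5.0 for the robust and random-block alternatives. The fit was tested on simulated data. By the naming rule all 46 genes are named; the 12 called probe sets with the largest differences per region are given in full and others in full or by range; seed families, Rnf130, Dgcr8 and the called genes of the comparison lists are named too. The members, lists and comparisons were chosen with earlier results of these data known. Within-gene differences, the beta-actin covariate, the counts by array and source sequence, and the Trpm3 relation (100000 permutations) were added after the data were seen. Promoter sequences were not used here. Alternatives were other filters, normalizations, variance models and tests, batch and replicate blocks, single batches and leaving out each array.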

Additional observations from a re-analysis of the deposited data

Results flagged for a closer look

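Signals of the called host probe sets were looked at in 76 groups of 10 arrays, and in 8 of them 1 array stood apart from the rest by Dixon's criterion, where chance gives about 1 in 20. In the prefrontal cortex Akt2 1421324_a_at was 7.67 in Df(16)A/+ replicate 1, with the nearest array at 8.23, and Ctdsp2 1451075_s_at was 10.86 in the same array, with the nearest at 10.54. Zfr 1449552_at was 10.84 in wild-type replicate 7, with the nearest at 11.2. In the hippocampus wild-type replicate 1 was low for Clcn5 1429400_at (2.5, nearest 4.1) and for Dnm3 1436875_at (6.5, nearest 7.24). Df(16)A/+ replicate 6 was low for Dnm2 1432004_a_at (5.37, nearest 6.04) and for Rnf130 1440941_at (5.78, nearest 6.11), and Df(16)A/+ replicate 1 for Dnm3 1446265_at (6.64, nearest 7.96).

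The genotype difference of Grid1 1441499_at was not the same in both regions, by 0.37 in the interaction contrast. Batch moved with genotype in each region and was not in this contrast, so genotype and batch cannot be told apart. Its PFC difference was -0.21 and its HPC difference 0.16.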

How the results depend on the processing

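No called host difference changed sign under any alternative. The number of prefrontal host calls, 17, was 11 with Welch's test, 10 with no filter on low values, 5 at 1.5-fold or more, 4 with the brightest probe set per gene, 5 with the run, 3 with the lot and 3 with both as blocks, 1 within run 4 and 0 within lot 1. Of the 3 with both blocks 2 are among the 17, and Arpp21 1440429_at is not. The number ranged from 11 to 22 when each array was left out in turn, and from 14 to 17 under median centring, quantile normalization, a filter above 6, a variance trend and the beta-actin covariate. The 5 hippocampal calls became 8 with quantile normalization, 3 with the beta-actin covariate, 0 at 1.5-fold or more, 0 with the brightest probe set per gene, 0 with the run, 2 with the lot and 0 with both as blocks, 2 within lot 1 and 0 within run 2, and 4 to 13 without each array. The 1 interaction call became 2 with a filter above 6 and with quantile normalization, and 1 to 3 without each array. The 13 prefrontal pathway calls became 6, 4 and 2 with run, lot and both as blocks, and the 8 in the hippocampus 1, 2 and 1. The 8 hippocampal noncoding calls became 5 with the run and 5 with both. The 7 prefrontal paralogue calls became 3 with both, and the 6 in the hippocampus 0, 1 and 0. The cause was not tested. With the replicate number as a replicate block, 15 prefrontal and 11 hippocampal probe sets were called (all 11 higher), and 1 in the interaction. The numbers were not taken to pair the arrays, because not every pair correlated above 0.1. Same-numbered arrays correlated at -0.17 to 0.34 in the prefrontal cortex and at -0.14 to 0.31 in the hippocampus. Arrays of one genotype and number correlated at -0.29 to 0.23 across the regions, with 10 of 20 pairs above 0.1. This rule cannot exclude pairing. Whether both regions came from the same mice was not established here, and the reported interaction treats all arrays as independent.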
